A study of Mus musculus with 6 samples.

Results

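NRF2 (gene symbol Nfe2l2), its inhibitor KEAP1 and 8 of the enzymes that NRF2 is known to switch on were measured in leukaemic mouse bone marrow. The 10 genes are Nfe2l2, Keap1, Gclm, Gclc, Gsr, Nqo1, Hmox1, Txnrd1, Srxn1 and G6pdx. Every probe set whose gene symbol names one of them was taken, which gave 19 of 45101 probe sets, and each was kept apart. Over the whole array, 20724 genes have a probe set that names them alone. One of the 19 names G6pd2 beside G6pdx.

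Each of 6 bone marrow samples was hybridised to its own Affymetrix MG-430_2.0 array, and the values are RMA values on the log2 scale. In the first group, labelled Gfi1b KO, the mice carried floxed alleles of Gfi1b (Gfi1bfl/fl), the MxCretg transgene and the NUP98/HOXD13 transgene (3 samples). In the second, labelled Gfi1b wildtype, they carried Gfi1b wt, MxCretg and NUP98/HOXD13 (3 samples). MxCretg and NUP98/HOXD13 are thus common to both groups, and all mice were leukaemic. The NUP98/HOXD13 transgene joins part of a nuclear pore gene to a HOX gene, and mice that carry it develop myelodysplasia and leukaemia. Mx-Cre is a recombinase under the interferon-inducible Mx1 promoter, which is active in many cell types besides blood cells. The labels give no age and no induction scheme. Nor do they state whether each sample is a mouse of its own, so the spread behind the p-values may be technical. The comparison asks how leukaemic marrow differs between the Gfi1b genotypes.

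The targeted gene, Gfi1b, a transcriptional repressor of red cell and platelet precursors, read 10.88, 11.63 and 11.67 in the KO samples and 5.83, 6.37 and 4.38 in the wildtype samples, so it was higher where the label says KO. Which exons are floxed is not stated, so this probe set may lie outside the deletion and cannot check the label. Every direction below is that of the samples labelled KO. The array medians lay between 3.73 and 3.86, and a group mean under 4 is called near the floor, where RMA compresses differences. The correlation between arrays over all probe sets was 0.946 to 0.972 within groups and 0.858 to 0.932 across them. The 3' minus 5' value of the Gapdh control probe sets, a check of RNA integrity, was 0.04 to 0.28 in the KO samples and -0.08 to 0.01 in the wildtype samples, and that of Actb was 0.12 to 0.39 and 0.07 to 0.19. The Gapdh value was higher in every KO sample than in any wildtype sample. Both values were highest in KO replicate 3 (Gapdh 0.28, Actb 0.39), and Gapdh was 0.04 in KO replicates 1 and 2. The part of RNA integrity in the results was not tested.

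NRF2 is a transcription factor of the cap'n'collar family. In unstressed cells KEAP1 holds it at a CUL3 ubiquitin ligase that sends it to the proteasome. Oxidants and electrophiles modify KEAP1, and NRF2 then enters the nucleus, pairs with a small MAF protein and binds antioxidant response elements in genes for glutathione synthesis, thioredoxin reduction, NADPH supply, quinone reduction and heme breakdown. In blood, NRF2 is known for its part in red cell survival and in the balance of blood stem cells. Its activity is set largely by protein stability, which an expression array does not measure.

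Of the 10 genes, 7 had promoter windows in the RefSeq sequences (GRCm38.p6; 250 bases before to 50 after an annotated start). Of these 7, 5 held the core of the antioxidant response element, TGACNNNGC, on either strand, and 2 (Keap1 and Nqo1) did not. A gene counted if any of its windows held the core, and 5 of the 9 windows of these genes did. Sequence outside the windows was not searched, so a gene without a match may have the element elsewhere. Over all genes with a window the core was present in 14.0% (3781 of 27025), and 12.4% of all windows held it. The related AP-1 element, TGANTCA, was in 8.97% of genes and in 1 of these 7. The sites upstream of the start are shown, 5′ to 3′ on the strand of the gene, because they are the letters that NRF2 and AP-1 proteins are known to recognise. Capitals mark the match to the antioxidant response element core, and in Srxn1 the matches to the AP-1 element. In Gclm, Txnrd1 and G6pdx the core is read on the other strand.
Nfe2l2: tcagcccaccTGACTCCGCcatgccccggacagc
Gclm: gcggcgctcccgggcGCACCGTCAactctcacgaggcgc
Txnrd1: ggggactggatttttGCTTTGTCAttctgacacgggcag
Srxn1: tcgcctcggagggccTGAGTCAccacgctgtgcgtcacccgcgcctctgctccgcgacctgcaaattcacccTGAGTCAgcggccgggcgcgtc
G6pdx: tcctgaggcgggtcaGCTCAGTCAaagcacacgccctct
These stretches lie at chr2:75704880-75704913 (minus strand) for Nfe2l2, chr3:122245408-122245446 (plus strand) for Gclm, chr10:82859099-82859137 (plus strand, the second of 3 starts) for Txnrd1, chr2:152105407-152105500 (plus strand) for Srxn1 and chrX:74428914-74428952 (minus strand) for G6pdx. The cores begin 240, 134, 92 and 57 bases upstream of the start in Nfe2l2, Gclm, Txnrd1 and G6pdx. Srxn1 has its AP-1 elements 102 and 45 bases upstream and its antioxidant response element core past the start, which is not shown. The AP-1 element 45 bases upstream is followed by gc, and this stretch differs from the core only by a G in place of its first C.

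In the KO samples a probe set of Nfe2l2 and probe sets of Gclm and Gclc, the subunits of the enzyme that starts glutathione synthesis, rose, and Gsr, which recycles oxidised glutathione, fell. Of the 19 probe sets, 3 rose and 1 fell at an adjusted p under 0.05 in limma with Benjamini-Hochberg adjustment over 45037 probe sets. Over all of these, 2.93% passed, 1.53% higher and 1.40% lower. Many of them are dim: 26088 of 45037 were near the floor in KO, against 3 of the 19. Fitted with only the probe sets whose mean was above the median, 1875 of 22518 passed, and 6 of 17 member probe sets. The median log2 difference, KO minus wildtype, was 0.10 for the 19 and 0.02 for all probe sets. The groups did not overlap in 10 of the 19, with KO above in 7 and below in 3, against 22.8% of all probe sets, 12.5% with KO above and 10.2% below. At an unadjusted p under 0.05 there were 10 of the 19 and 7621 of all. An exact permutation test of 3 against 3 samples cannot go below p = 0.1. The marrow is a mixture of cells, so fewer cells of a type and less RNA per cell cannot be told apart. The call count of 4 was 1 without KO replicate 2 and 2 without wildtype replicate 1.

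**Figure D1:**
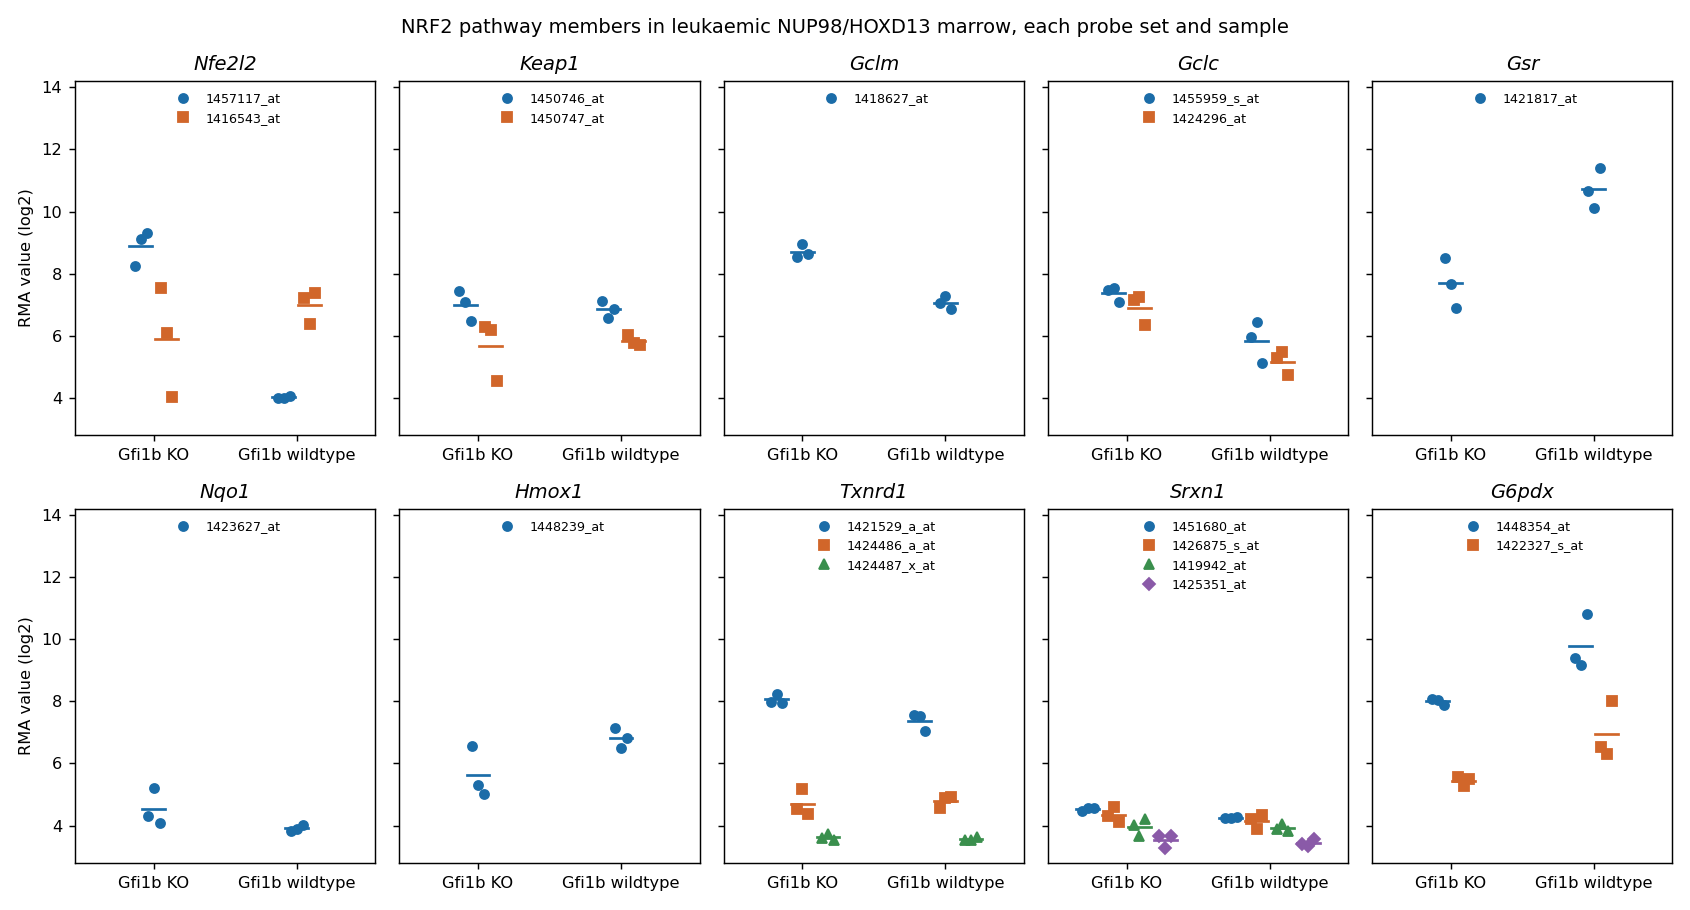
RMA value (log2, vertical axis) of every member probe set in the 3 Gfi1b KO samples (left in each panel) and the 3 Gfi1b wildtype samples (right). Points are samples, colours and shapes are probe sets and bars are group means. In Nfe2l2 the KO mean lies above the wildtype mean for 1457117_at and below it for 1416543_at. Gclm and Gclc lie higher in KO, and Gsr and G6pdx lower.

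The 2 probe sets of Nfe2l2 gave different results. Probe set 1457117_at read 8.25, 9.10 and 9.29 in the KO samples and 3.98, 4.01 and 4.07 in the wildtype samples. The groups were 4.18 apart at their closest, and the wildtype samples lay within 0.09 of each other. The means were 8.88 ± 0.55 and 4.02 ± 0.04 (SD, n = 3), a 29.0-fold rise (95% interval 18.6 to 45.3) with a log2 difference of 4.86, a standard error of 0.27 and a limma adjusted p of 0.00388. Among all probe sets it stood at place 6 by p-value and at place 13 by size of the rise. Its wildtype mean was just above the floor limit, and wildtype replicate 1 was under 4. RMA compresses differences there, so the size of the fold and the narrow wildtype spread are uncertain. Probe set 1457117_at is the one member probe set that passed in limma without any one of the 6 samples, with adjusted p between 0.00228 and 0.0371.

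Probe set 1416543_at of Nfe2l2 read 7.53, 6.10 and 4.02 in the KO samples and 7.22, 6.40 and 7.38 in the wildtype samples. The KO samples ran from above every wildtype sample to far below them. The means were 5.88 ± 1.77 and 7.00 ± 0.53 (SD, n = 3), and the difference of -1.11 (95% interval -3.11 to 0.88) did not pass (limma adjusted p = 0.577). It was -0.18 without KO replicate 3 and -1.94 without KO replicate 1. In KO replicate 3, where 1457117_at was highest, 1416543_at was lowest. The deposited table gives no position for either probe set within the gene (GRCm38.p6 chr2:75675513-75704663), so which transcripts each reads was not analysed here.

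Keap1, the adaptor that holds NRF2 at the ligase, had no probe set past the threshold. Its brighter probe set, 1450746_at, read 7.44, 7.09 and 6.49 in the KO samples and 7.14, 6.58 and 6.85 in the wildtype samples. The groups overlapped, with a difference of 0.15 (95% interval -0.49 to 0.79). The other, 1450747_at, read 6.29, 6.20 and 4.56 in the KO samples and 6.03, 5.76 and 5.71 in the wildtype samples, with a difference of -0.15 (95% interval -1.23 to 0.93). KO replicate 3 was the lowest of all 6 samples in both probe sets. The limma adjusted p-values were 0.837 and 0.907.

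The glutathione synthesis enzyme is made of a catalytic subunit, encoded by Gclc, and a modifier subunit, encoded by Gclm. Gclm read 8.52, 8.95 and 8.62 in the KO samples and 7.04, 7.27 and 6.86 in the wildtype samples. Every KO sample stood more than 1.2 above the highest wildtype sample. The means were 8.70 ± 0.22 and 7.06 ± 0.20 (SD, n = 3), a 3.12-fold rise (95% interval 2.36 to 4.11; log2 difference 1.64 with a standard error of 0.17, limma adjusted p = 0.0107). The call was lost without KO replicate 2 (difference 1.51, adjusted p = 0.0605) and held without any other single sample.

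Gclc rose at 1 of its 2 probe sets. Probe set 1424296_at read 7.15, 7.23 and 6.35 in the KO samples and 5.28, 5.48 and 4.73 in the wildtype samples, a 3.36-fold rise (log2 difference 1.75 with a standard error of 0.30, limma adjusted p = 0.0371). Probe set 1455959_s_at read 7.47, 7.54 and 7.08 in the KO samples and 5.95, 6.44 and 5.14 in the wildtype samples. Its difference of 1.52 (standard error 0.33) did not pass (adjusted p = 0.069), though it did without wildtype replicate 2 (difference 1.82, adjusted p = 0.0256). In both the groups did not overlap, and KO replicate 3 and wildtype replicate 3 were the lowest of their groups. When KO replicate 1, KO replicate 2, wildtype replicate 1 or wildtype replicate 3 was left out, 1424296_at no longer passed, with differences of 1.53 to 1.81 and adjusted p between 0.0864 and 0.144.

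Gsr encodes glutathione reductase, which uses NADPH to return oxidised glutathione to its reduced form. It read 8.50, 7.65 and 6.91 in the KO samples and 10.67, 10.10 and 11.41 in the wildtype samples. The highest KO sample lay 1.61 below the lowest wildtype sample. The means were 7.69 ± 0.80 and 10.73 ± 0.65 (SD, n = 3), an 8.24-fold fall (95% interval 3.77 to 18; log2 difference -3.04 with a standard error of 0.47, limma adjusted p = 0.0297). Leaving out KO replicate 2, KO replicate 3, wildtype replicate 1 or wildtype replicate 3 ended the call, with differences of -3.07 to -2.65 and adjusted p between 0.0617 and 0.132. Gsr was thus opposite in direction to Gclm and Gclc 1424296_at.

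G6pdx encodes glucose-6-phosphate dehydrogenase, the entry enzyme of the pentose phosphate pathway and a source of the NADPH that Gsr and Txnrd1 use. Its own probe set, 1448354_at, read 8.08, 8.06 and 7.88 in the KO samples and 9.38, 9.16 and 10.82 in the wildtype samples. The groups did not overlap, and the spread was 0.11 in KO against 0.90 in wildtype (SD, n = 3), where replicate 3 stood highest. The difference of -1.78 (95% interval -2.78 to -0.78) did not pass (limma adjusted p = 0.0857). It did pass without wildtype replicate 2 (difference -2.10, adjusted p = 0.0478) or wildtype replicate 3 (difference -1.26, adjusted p = 0.0291). The probe set shared with G6pd2, 1422327_s_at, read 5.57, 5.27 and 5.52 in the KO samples and 6.55, 6.29 and 8.0 in the wildtype samples. It too was lower in every KO sample, by 1.49 on average (adjusted p = 0.14) and by 0.97 without wildtype replicate 3, and it cannot tell G6pdx from G6pd2.

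**Figure D2:**
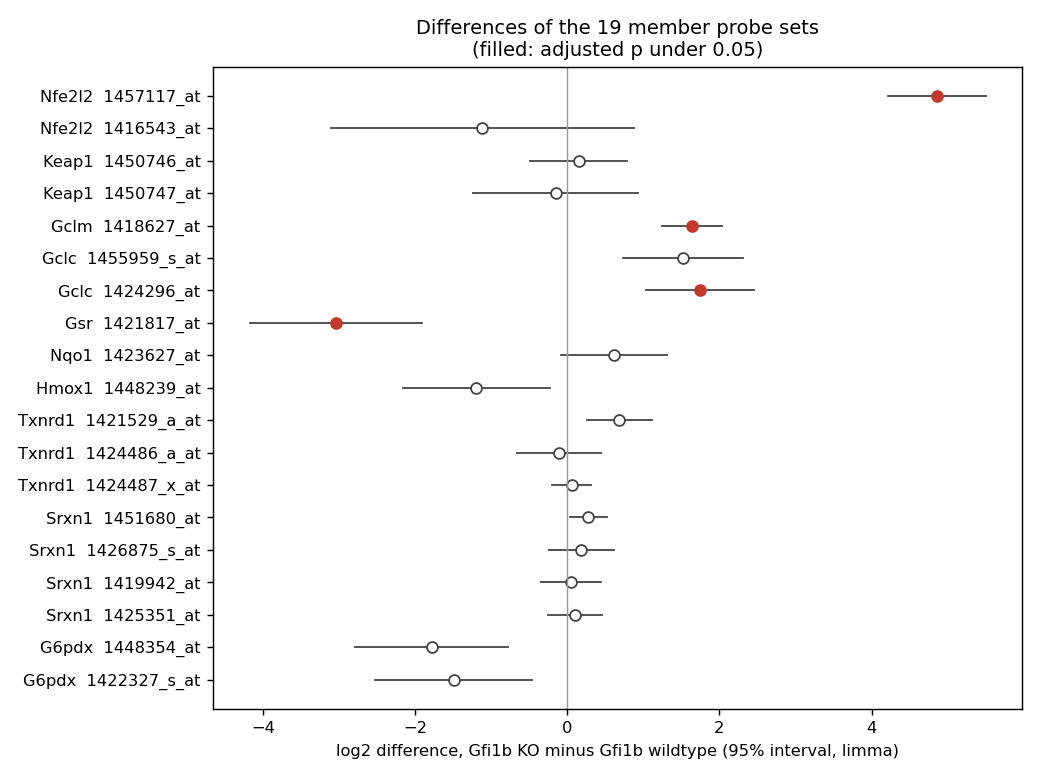
Log2 difference, Gfi1b KO minus Gfi1b wildtype (horizontal axis), with its 95% interval from limma for the 19 member probe sets (rows). Filled points passed an adjusted p under 0.05. They are Nfe2l2 1457117_at (4.86), Gclm (1.64), Gclc 1424296_at (1.75) and Gsr (-3.04).

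Thioredoxin reductase 1, encoded by Txnrd1, keeps thioredoxin reduced. Its brightest probe set, 1421529_a_at, read 7.98, 8.25 and 7.95 in the KO samples and 7.56, 7.53 and 7.03 in the wildtype samples. Every KO sample was higher than every wildtype sample, and the difference of 0.69 (95% interval 0.25 to 1.12) did not pass (limma adjusted p = 0.112). The dimmer 1424486_a_at had means of 4.69 ± 0.42 and 4.80 ± 0.19 (SD, n = 3), a difference of -0.11 (95% interval -0.66 to 0.44). The third, 1424487_x_at, stood near the floor in both groups, with means of 3.63 and 3.58.

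Srxn1 encodes sulfiredoxin, which repairs over-oxidised peroxiredoxins. All 4 of its probe sets were dim, with group means between 3.44 and 4.53. Probe set 1451680_at read 4.46, 4.57 and 4.56 in the KO samples and 4.23, 4.26 and 4.28 in the wildtype samples. These groups did not overlap, but the difference was 0.28 (95% interval 0.03 to 0.52; limma adjusted p = 0.237). The other 3 overlapped, with differences of 0.18, 0.10 and 0.05 at 1426875_s_at, 1425351_at and 1419942_at, and the last 2 stood near the floor in both groups. Leaving out single samples gave 0.05 to 0.29 at 1426875_s_at and 0.03 to 0.22 at 1425351_at.

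Nqo1, a quinone reductase often used as a readout of NRF2 activity, read 4.32, 5.22 and 4.07 in the KO samples and 3.82, 3.90 and 4.03 in the wildtype samples. The wildtype mean was near the floor, and KO replicate 2 alone exceeded 5. The difference of 0.62 (95% interval -0.08 to 1.32) did not pass (limma adjusted p = 0.352), and without KO replicate 2 it was 0.28.

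Hmox1 encodes heme oxygenase 1, the inducible enzyme that breaks heme down and is known for its high level in macrophages that clear red cells. It read 6.55, 5.31 and 5.02 in the KO samples and 7.14, 6.51 and 6.81 in the wildtype samples. KO replicate 1 lay just above wildtype replicate 2, and the other KO samples lay below all wildtype samples. The difference of -1.20 (95% interval -2.16 to -0.23) did not pass (limma adjusted p = 0.197). Without KO replicate 1 it was -1.66 and passed (adjusted p = 0.0448).

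Further genes of the pathway split in direction as well. They were taken from 6 lists of 92 genes, of which 89 had a probe set of their own, and each gene was read at its brightest probe set. Of the 89, 5 rose, 6 fell and 78 did not pass, with a median log2 difference of -0.02. Read the same way, 3.91% of all 20724 genes passed (1.92% higher and 1.99% lower), and their median was 0.0081. In place of 11 calls there were 5 without KO replicate 1, 0 without KO replicate 2 and 4 without KO replicate 3. There were 3 without wildtype replicate 1, 14 without wildtype replicate 2 and 5 without wildtype replicate 3. Without KO replicate 2, 24 of the 89 had an unadjusted p under 0.05 in limma, against 7378 of all 45037 probe sets. In that setting 49 of the 45037 passed. The 89 are each read at the brightest probe set while the 45037 include many dim ones, so these shares are not on the same base. With all 6 samples, 34 of the 89 and 4207 of the 20724 genes had an unadjusted p under 0.05 in limma.

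Regulators and partners of NRF2 stayed below the threshold. The 18 measured included Cul3, Bach1, Bach2 and the small MAF genes Maff, Mafg and Mafk. Of these 18, 0 passed in limma, 5 had an unadjusted p under 0.05 and the median was -0.04. Over all 20724 genes read the same way, 4207 had an unadjusted p under 0.05. The smallest p-values were those of Sqstm1, an autophagy receptor that can bind KEAP1, and Crebbp, a coactivator. Sqstm1 averaged 8.31 ± 0.13 in KO and 7.77 ± 0.22 in wildtype (SD, n = 3; difference 0.55, limma adjusted p = 0.129). Crebbp differed by 0.79 (adjusted p = 0.179).

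Among 15 further genes of glutathione supply and use, 1 fell and 14 did not pass (median -0.00442). Mgst1, a membrane-bound glutathione transferase, read 5.65, 3.80 and 3.29 in the KO samples and 9.08, 7.91 and 10.51 in the wildtype samples (log2 difference -4.92, limma adjusted p = 0.034). KO replicates 2 and 3 were under 4, near the floor, so no fold is given. Its second probe set had means of 3.46 and 3.32, near the floor in both groups. Esd, which acts on a glutathione conjugate of formaldehyde, differed by 0.87 (adjusted p = 0.0543). Slc7a11, the cystine importer, named after its values were seen, lay near the floor with values between 3.13 and 3.41 in all 6 samples.

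Of 13 thioredoxin and peroxiredoxin genes, 1 rose, 1 fell and 11 did not pass (median 0.33). Prdx6 read 11.06, 10.87 and 10.29 in the KO samples and 8.35, 8.34 and 8.22 in the wildtype samples, a 5.42-fold rise (limma adjusted p = 0.00701). Prdx5 read 6.63, 5.90 and 6.91 in the KO samples and 9.50, 9.17 and 10.63 in the wildtype samples, a 9.77-fold fall (adjusted p = 0.0194). Neither pair of groups overlapped. The dim second probe set of Prdx6 had means of 3.72 and 3.39, near the floor.

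Of 11 genes of NADPH supply and the pentose phosphate pathway, 0 rose, 2 fell and 9 did not pass, with a median of -1.06 against 0.0081 for all genes. H6pd, the dehydrogenase of the endoplasmic reticulum that resembles G6pdx, read 4.50, 4.42 and 4.70 in the KO samples and 5.99, 6.08 and 6.47 in the wildtype samples (difference -1.64, limma adjusted p = 0.0101). Idh1, the cytosolic isocitrate dehydrogenase, averaged 5.15 ± 0.55 in KO and 7.62 ± 0.85 in wildtype (SD, n = 3; difference -2.47, adjusted p = 0.047). Its other probe set differed by -2.17 and did not pass (adjusted p = 0.066). Pgd, the next NADPH-making enzyme after G6pdx, and the NAD kinase gene Nadk, both named after their values were seen, missed the threshold. Their log2 differences were -2.32 (adjusted p = 0.0539) and -1.97 (adjusted p = 0.0542). Of the 11, 1 lay higher in every KO sample than in every wildtype sample and 5 lay lower. Over all 20724 genes read the same way, 2744 lay higher and 2469 lower. The gene that lay higher was Pgls, also named after its values were seen, with a log2 difference of 1.10 (limma adjusted p = 0.229).

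Of 8 genes of heme breakdown and iron storage, 2 rose and 1 fell (median 0.43). The constitutive heme oxygenase gene Hmox2 fell by 1.23 on the log2 scale, with 7.40, 6.87 and 6.96 in the KO samples and 8.28, 8.27 and 8.36 in the wildtype samples (limma adjusted p = 0.0199). Por, the reductase that feeds electrons to heme oxygenases, rose by 1.41 (adjusted p = 0.0386). Slc48a1, a heme transporter, rose by 1.85 (adjusted p = 0.041), and its other probe set rose by 1.23 (adjusted p = 0.0268).

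Among 24 detoxification enzymes and export pumps, 2 rose, 1 fell and 21 did not pass (median -0.01). Gstm5, a glutathione transferase, read 9.54, 10.80 and 11.33 in the KO samples and 4.58, 6.49 and 5.44 in the wildtype samples (33.2-fold, limma adjusted p = 0.0161). The carbonyl reductase gene Cbr1 rose by 1.25 (adjusted p = 0.0453), with a wildtype mean of 4.01. Ptgr1, a prostaglandin reductase, fell by 2.54 on the log2 scale (adjusted p = 0.0352).

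**Figure D3:**
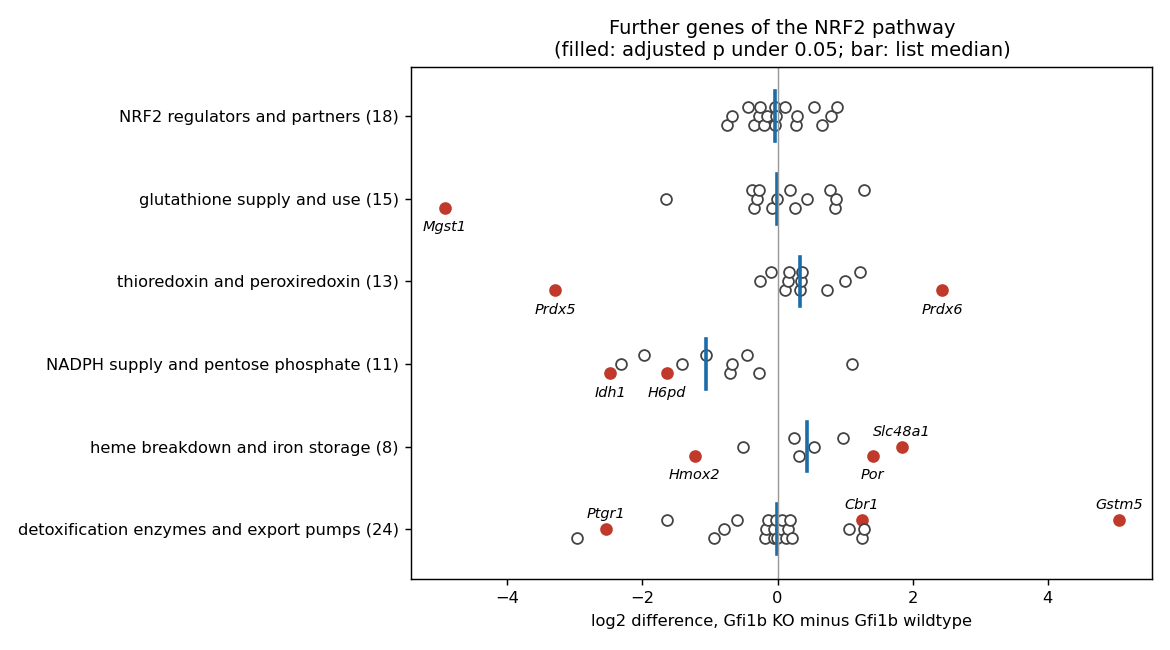
Log2 difference, Gfi1b KO minus Gfi1b wildtype (horizontal axis), of 89 further pathway genes in 6 lists (rows, with the number measured). Filled, named points passed an adjusted p under 0.05 and blue bars are list medians. The list of NADPH supply has its median at -1.06, and the other medians lie between -0.04 and 0.43.

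The cell type markers moved between the groups beside these genes. All 10 neutrophil markers were lower in every KO sample than in every wildtype sample, and 7 of them fell at the threshold. Over all 20724 genes, each at its brightest probe set, 2469 were lower in every KO sample and 1.99% fell at the threshold. The mean over the 10 was 8.18, 6.47 and 4.21 on the log2 scale for the KO samples, against 11.95, 12.37 and 13.74 for the wildtype samples. In the KO group the neutrophil mean was highest in replicate 1 and lowest in replicate 3. So were Gsr, Hmox1, Nfe2l2 1416543_at, G6pdx 1448354_at and both Keap1 probe sets, and no other member probe set. The erythroid mean and the megakaryocyte and platelet mean had the same order. In the wildtype group the neutrophil mean, Gsr and both G6pdx probe sets were highest in replicate 3. Also highest there were both Nfe2l2 probe sets, Nqo1, Txnrd1 1424486_a_at and 1424487_x_at, and Srxn1 1451680_at, 1426875_s_at and 1425351_at. Hmox1, both Keap1 probe sets and Txnrd1 1421529_a_at were highest in wildtype replicate 1, where the neutrophil mean was lowest.

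Of 10 monocyte and macrophage markers, 4 fell and 0 rose, with means of 4.33 to 4.74 in KO and 5.95 to 7.17 in wildtype, and 3 were near the floor in KO. Of 10 erythroid markers, 2 rose and 0 fell, with means of 8.29 to 10.41 in KO and 6.70 to 8.84 in wildtype. Of 7 megakaryocyte and platelet markers, 1 rose (4.76 to 5.99 in KO, 4.60 to 5.67 in wildtype). Of 5 B cell markers, 2 fell (4.25 to 4.39 in KO, 5.40 to 5.51 in wildtype). Of 7 T and NK cell markers, 0 passed in limma and 0 had an unadjusted p under 0.05. Their means were 4.47 to 4.94 in KO, and 5.00, 7.16 and 5.35 in wildtype replicates 1, 2 and 3. Of 5 stem and progenitor markers, 0 passed and 1 had an unadjusted p under 0.05 in limma. Their means were 5.56 to 5.63 in KO, and 6.69, 5.03 and 5.12 in wildtype replicates 1, 2 and 3. Over all 20724 genes read the same way, 1.92% rose and 1.99% fell, and 4207 had an unadjusted p under 0.05 in limma. The part of these cell types in the member results was not tested.

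**Figure D4:**
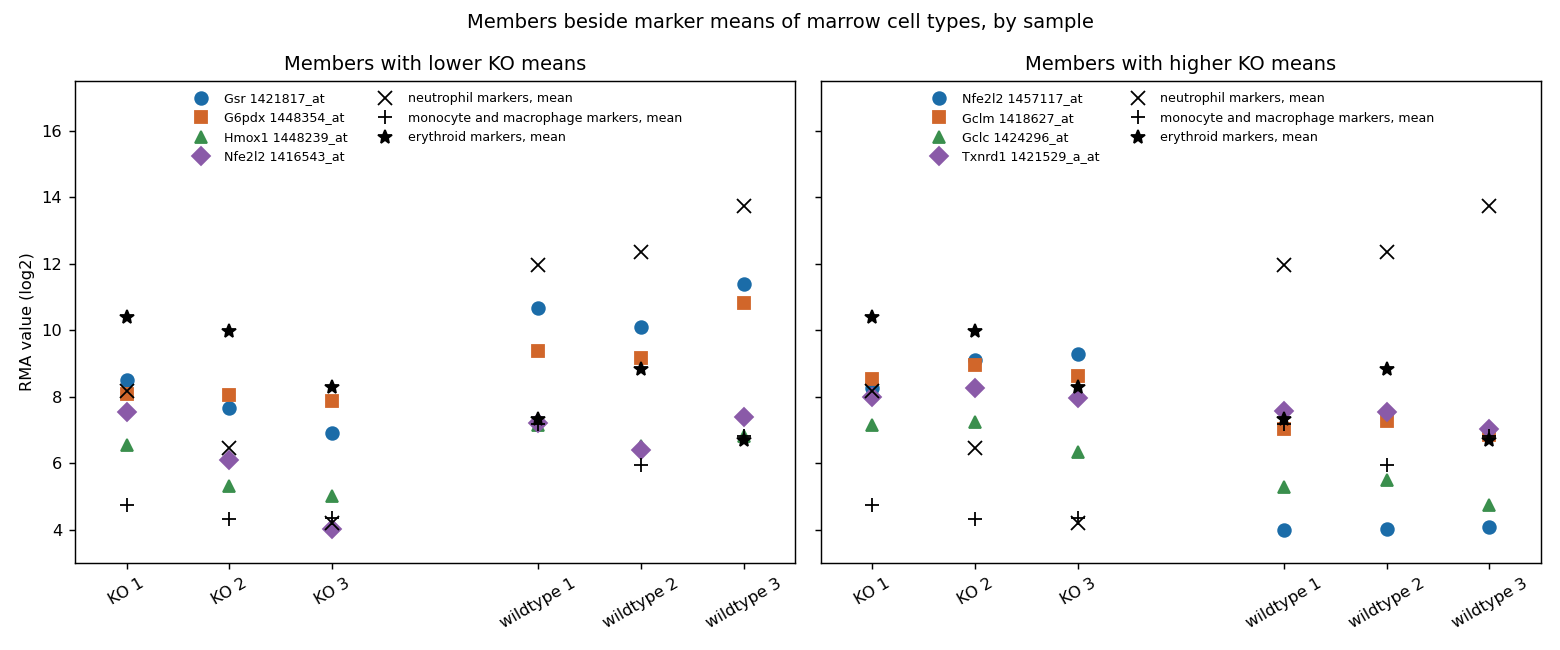
RMA value (log2, vertical axis) in each of the 3 Gfi1b KO and 3 Gfi1b wildtype samples (horizontal axis) for 8 member probe sets, beside the mean of the neutrophil, monocyte and macrophage, and erythroid markers (black). On the left, Gsr is 8.50, 7.65 and 6.91 in KO while the neutrophil mean is 8.18, 6.47 and 4.21. On the right, Gclm lies between 8.52 and 8.95 in KO and between 6.86 and 7.27 in wildtype.

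The probe sets most like Nfe2l2 1457117_at over the 6 samples, by Pearson correlation among the 759 whose SD was at least that of the Nfe2l2 probe set divided by 2, named Col5a1 (r = 0.998), Slc45a4, Hmgn3, BC002199 and Mc2r (r = 0.996 each). In each the wildtype SD was smaller than the KO SD. Col5a1, a collagen chain gene, averaged 8.22 ± 0.53 in KO and 4.74 ± 0.08 in wildtype, and Mc2r, a melanocortin receptor gene, 8.29 ± 0.75 and 3.90 ± 0.09 (SD, n = 3). The probe sets most like Hmox1 among 7904 named Pitpnm1 (r = 0.993), 4733401H18Rik (r = 0.991), Rprd1a, Prei4 and Sass6 (r = 0.979, 0.976 and 0.973). Of these, Pitpnm1 averaged 6.86 ± 1.11 in KO and 8.59 ± 0.35 in wildtype (SD, n = 3). With 6 samples in 2 groups, such correlations largely repeat the group difference and are given as a description.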

How the data were processed

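RNA (200 ng of total RNA per array) was labelled and hybridised by the submitters to Affymetrix arrays. The submitters' processing notes name RMA as the source of the deposited log2 values, with its version not given in the sources used here. RMA makes the distributions of the arrays nearly equal, so each difference is relative to the bulk of probe sets. A second table, deposited by the authors, pairs the same log2 values (largest difference 0) with gene symbols, signed fold scores, and p-values, which were used as an alternative. Arrays give no read depth; their number limits the precision.

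Here, 45037 probe sets, without 64 controls, were fitted in R 4.3.3 with limma 3.58.1 (lmFit, eBayes), as KO minus wildtype. The two-sided p-values were adjusted by Benjamini and Hochberg's method, and 0.05 was the threshold. All probe sets were tested, with no further normalization. The fit was also run on simulated data with independent normal values. These leave out differences that samples share across genes, so that run does not check the calls given here. Errors are SD over samples or limma's standard error. The members and lists were chosen with earlier results of these data known. All member probe sets are named. Of each list the text names up to 6 genes past the threshold, and further ones with the smallest p where fewer than 2 passed. Slc7a11, Pgd, Nadk and Pgls are named besides, after their values were seen. Listed genes with older symbols in the table (Akr1a4, Ela2, Emr1, Igh-6) were matched through RefSeq. Sesn1, Me1 and Ftl1 stand only in probe sets of several genes and were left out, as were Cd79a and Mecom. Promoters came from RefSeq (GRCm38.p6). Figures were drawn with matplotlib 3.10.9.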

Additional observations from a re-analysis of the deposited data

How the results depend on the processing

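Of 19 alternatives, 10 moved the count of probe sets past the threshold (1319 of 45037) by over 1.5 times. They were the replicate block (833), the mean of a gene's probe sets (832 of 20724 genes, since fewer were tested), adjusted p under 0.01 (129) or 0.1 (2645), and the 6 that left out a sample. These gave 49 to 2187 for this count, 1 to 6 for the member probe sets (4) and 0 to 14 for the 11 further pathway genes. An adjusted p under 0.01 left 1 member probe set and 1 further pathway gene, and under 0.1 there were 18 further pathway genes. The replicate numbers share no source in the labels, and same-numbered samples did not deviate together (correlations -0.14, -0.03 and -0.02). With the number as a replicate block, 4 member probe sets passed, with Gclc 1455959_s_at (adjusted p = 0.046) in and Gsr (adjusted p = 0.0631) out.

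Signs turned among uncalled member probe sets when single samples were left out, with ranges of -0.068 to 0.41 for Keap1 1450746_at, -0.45 to 0.41 for Keap1 1450747_at, -0.35 to 0.054 for Txnrd1 1424486_a_at and -0.073 to 0.20 for Srxn1 1419942_at. The cause was not tested. With only the probe sets above the median, Gclc 1455959_s_at (adjusted p = 0.0406) and G6pdx 1448354_at (adjusted p = 0.0483) also passed; fewer were tested. Nfe2l2 1457117_at passed in all 16 alternatives that gave it a value. Signal near the floor limits what can be seen of Nqo1, Srxn1 and 1424487_x_at of Txnrd1.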
